A study of Mus musculus with 6 samples.

Results

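The regions described here are sites bound by the chromatin remodeller CHD7 that lie between protein-coding genes and carry H3K27ac, the acetylated lysine of histone H3 found at active promoters and enhancers. They were chosen by a rule on positions. CHD7 consensus regions, each the joined extent of overlapping peaks of both CHD7 libraries, were taken where they lay outside every protein-coding gene body and 1 to 100 kb from the nearest annotated end of a protein-coding gene. They also had to overlap an H3K27ac consensus region, found in both H3K27ac libraries, and no peak of an input library. The rule gave 1346 members of 19947 CHD7 consensus regions. CHD7 binding, H3K27ac overlap and distance from protein-coding genes were therefore used to choose them, and the values of these measures are given as descriptions without a test.

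The cells came from embryos at E10.5 of a cross of Wnt1-Cre2 males with mTmG females. Cre from the Wnt1 driver switches the mTmG reporter from membrane tomato to membrane green fluorescence in the dorsal neural tube and the neural crest that leaves it. Green cells of pharyngeal arches 3 to 6 were sorted and are labelled cardiac neural crest, the crest population that populates the caudal arches and enters the outflow tract. All 6 libraries, with 2 each for CHD7, H3K27ac and input chromatin, came from this 1 genotype and stage, so the study compares antibodies and not conditions. The labels do not say whether the samples of a group were separate litters or sorts, so spreads between them may be technical. The lists of the CHD7 libraries held 31873 and 26927 peaks and those of the H3K27ac libraries 24283 and 22686, and the depth of every library is unknown. No expression was measured, and the sorted identity could be set only against binding near marker genes, given with the gene lists.

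CHD7 belongs to the chromodomain helicase DNA-binding family. It slides nucleosomes with energy from ATP and binds methylated lysine 4 of histone H3 through its chromodomains. Loss of 1 human copy causes CHARGE syndrome, in which malformations of the outflow tract and the aortic arch arteries are common. Away from genes, remodellers of this family and H3K27ac are both known from enhancers, which act on genes at a distance. Such intergenic space also holds genes that make no protein, among them long non-coding RNAs (lncRNAs), microRNAs, transfer RNAs (tRNAs) and the small nuclear RNAs (snRNAs) of the spliceosome, each with a promoter of its own.

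Start windows of lncRNAs that overlap members gave the sequences that could be read here. RefSeq windows of the GRCm38.p6 assembly (mm10) run from 250 bases before to 50 bases after an annotated start. Of the members, 141 (10.48%) overlapped 173 such windows of 148 lncRNA genes, and of the 2058 intergenic CHD7 regions without H3K27ac 70 (3.40%) overlapped 73. Windows of the same gene often overlap each other. The windows in members had a median GC content of 55.0%, against 51.3% in those of regions without H3K27ac and 47.7% over all 5184 lncRNA windows 1 to 100 kb outside protein-coding genes. The ratio of observed to expected CpG dinucleotides had medians of 0.52, 0.47 and 0.22 in the same order. A GC content over 50% together with a CpG ratio over 0.6 was found in 37.6% of the windows in members, 26.0% of those in regions without H3K27ac and 4.13% of the intergenic lncRNA windows. The GC box, read as GGGCGG on either strand, stood in 46.8%, 24.7% and 10.6% of them, and in 35.7% of all 32851 start windows of the table.

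Of the other motifs searched on both strands, the ETS core CCGGAAG was less frequent in the windows in members, 6.94%, than in those of regions without H3K27ac, 8.22%, or in all start windows, 8.86%, and stood in 3.16% of the intergenic lncRNA windows. In the same order CCAAT stood in 30.1%, 32.9%, 37.4% and 37.1%, and TATAAA in 16.8%, 9.59%, 13.6% and 16.6%. The E-box CACGTG stood in 12.1%, 9.59%, 7.15% and 6.00%. The cyclic AMP response element TGACGTCA stood in 4.62% of the windows in members, 0 of the 73 in regions without H3K27ac, 1.79% of all start windows and 0.93% of the intergenic lncRNA windows. Matches of different motifs may share bases. A match describes the letters of a window and does not show a bound factor.

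Of the windows, 5 are printed because they show the range of these promoters in members of high CHD7 fold, and they were picked after their values were seen. All are from RefSeq, mm10, 5′ to 3′ on the strand of the lncRNA, and capitals mark GC boxes. D230017M19Rik starts at chr1:72243743-72244042 on the plus strand, at a member 14.0 kb from Pecr that also holds an snRNA end. 2900024J01Rik starts at chr1:180777711-180778010 on the plus strand, at a member 23.1 kb from Acbd3. Zmiz1os1, antisense to Zmiz1 by its name, starts at chr14:25378463-25378762 on the minus strand, 78.7 kb from Zmiz1. Gm40513 starts at chr9:41890500-41890799 on the minus strand, 15.3 kb from Gm40514. 4930518C04Rik starts at chr14:103898517-103898816 on the plus strand, 54.1 kb from Ednrb, the endothelin receptor gene of neural crest derived glia and melanocyte precursors.
D230017M19Rik: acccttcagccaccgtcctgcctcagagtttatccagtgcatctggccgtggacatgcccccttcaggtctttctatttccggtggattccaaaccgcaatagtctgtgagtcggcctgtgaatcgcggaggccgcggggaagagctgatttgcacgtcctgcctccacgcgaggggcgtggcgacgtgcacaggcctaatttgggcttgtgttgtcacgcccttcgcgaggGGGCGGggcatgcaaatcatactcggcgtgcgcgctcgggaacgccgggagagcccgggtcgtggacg
2900024J01Rik: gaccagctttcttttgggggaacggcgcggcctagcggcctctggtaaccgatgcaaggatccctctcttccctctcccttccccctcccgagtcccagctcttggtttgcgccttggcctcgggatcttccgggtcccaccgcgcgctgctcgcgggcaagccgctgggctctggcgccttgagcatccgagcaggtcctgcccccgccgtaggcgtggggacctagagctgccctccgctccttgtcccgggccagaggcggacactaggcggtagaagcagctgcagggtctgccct
Zmiz1os1: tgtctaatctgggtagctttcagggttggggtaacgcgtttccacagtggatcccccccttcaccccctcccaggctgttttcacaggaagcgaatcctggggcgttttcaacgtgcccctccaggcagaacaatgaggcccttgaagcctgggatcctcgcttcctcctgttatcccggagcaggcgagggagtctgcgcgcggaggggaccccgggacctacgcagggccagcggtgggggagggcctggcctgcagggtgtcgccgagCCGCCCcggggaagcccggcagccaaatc
Gm40513: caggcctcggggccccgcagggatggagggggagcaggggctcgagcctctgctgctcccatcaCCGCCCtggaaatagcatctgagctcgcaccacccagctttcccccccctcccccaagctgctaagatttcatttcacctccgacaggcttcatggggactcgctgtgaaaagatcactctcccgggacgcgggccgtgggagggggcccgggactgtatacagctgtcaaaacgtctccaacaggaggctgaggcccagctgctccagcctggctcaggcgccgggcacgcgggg
4930518C04Rik: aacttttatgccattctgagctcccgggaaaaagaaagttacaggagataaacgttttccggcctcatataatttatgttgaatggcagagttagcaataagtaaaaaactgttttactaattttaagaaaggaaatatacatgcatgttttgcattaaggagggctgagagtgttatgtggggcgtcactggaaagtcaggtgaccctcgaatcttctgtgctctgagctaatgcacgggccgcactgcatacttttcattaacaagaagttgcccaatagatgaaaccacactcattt

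In the windows of 2900024J01Rik, Zmiz1os1 and Gm40513 a CHD7 summit, the base of highest signal within a peak, fell inside the printed bases. The GC content was 62.7% for D230017M19Rik, 68.0% for 2900024J01Rik, 65.3% for Zmiz1os1 and 66.0% for Gm40513, and 40.0% for 4930518C04Rik. The CHD7 fold of the members in libraries 1 and 2 was 7.81 and 6.61 at D230017M19Rik and 6.06 and 5.14 at 2900024J01Rik. It was 5.63 and 4.92 at Zmiz1os1, 4.41 and 5.88 at Gm40513 and 5.94 and 5.67 at 4930518C04Rik. The windows of 2900024J01Rik and 4930518C04Rik hold no GC box, and that near Ednrb has the lowest GC content of the printed set in a member of similar CHD7 fold. Its H3K27ac fold, 3.68 and 4.73, lay below that of the member at D230017M19Rik, 10.6 and 9.38.

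MicroRNAs were the other members' features with a readable sequence. In all, 9 members (0.67%) lay within 1 kb of the end of a microRNA gene. Of the 2058 intergenic CHD7 regions without H3K27ac 6 (0.29%) did so, and of the 3404 of both together 15 (0.44%). Of 248 microRNA genes of the intergenic space 10 (4.03%) had such a member and 5 (2.02%) a region without H3K27ac. The mature forms of the better known microRNAs at members are printed from RefSeq with the seed, bases 2 to 8, in capitals. The printed seeds differ from each other.
let-7i-5p: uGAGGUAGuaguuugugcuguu
miR-210-3p: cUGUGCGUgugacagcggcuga
miR-193a-3p: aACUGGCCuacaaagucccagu
miR-203-3p: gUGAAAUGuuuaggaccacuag
miR-760-3p: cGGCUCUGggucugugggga

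The member 477 bp from Mirlet7i, whose product belongs to the let-7 family that restrains growth genes, had CHD7 folds of 2.31 and 3.13 and H3K27ac folds of 4.20 and 3.39. Its nearest protein-coding gene was Mon2, 5.08 kb away. At Mir210, whose product is induced in low oxygen, the member lay 511 bp from the gene, with CHD7 folds of 4.61 and 3.05 and H3K27ac folds of 4.89 and 4.89. The member over Mir193a had CHD7 folds of 3.30 and 5.21 and H3K27ac folds of 3.72 and 4.02. At 21 bp from Mir203, a microRNA of epidermal differentiation, CHD7 folds were 3.59 and 3.94 and H3K27ac folds 5.19 and 4.18. The member over Mir760 also held a tRNA end, with CHD7 folds of 3.26 and 3.36. Libraries 1 and 2 differed most at Mir193a and Mir210 and in opposite directions.

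The first question was how often an intergenic CHD7 region carried H3K27ac. Of 3527 CHD7 regions 1 to 100 kb from protein-coding genes, 123 overlapped an input peak, 49 of them with H3K27ac, and were left out. Of the remaining 3404, 1346 (39.5%) overlapped H3K27ac and 2058 did not. Over all 19947 CHD7 regions the share was 60.4%. The number of members was 588 with the −log10 q minimum raised to 5, 185 with it at 10, 886 with genes of all types as boundaries and 2875 over regions found in either library. Among regions free of input peaks it was 80.4% of 10178 within 1 kb of a protein-coding gene end, 44.2% of 4739 in gene bodies and 21.7% of 1334 more than 100 kb from a gene. Peaks of single libraries, paired by number, gave 34.8% in library 1 and 37.2% in library 2. Library 1 had the longer CHD7 and H3K27ac lists, and the part of list length in these shares was not tested.

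Within the intergenic range the share was lower towards both limits than between them. It was 36.0% of 617 regions at 1 to 5 kb from a protein-coding gene, 41.2% at 5 to 10 kb, 42.8% at 10 to 20 kb and 43.8% of 425 at 20 to 30 kb. It then was 41.2% at 30 to 50 kb, 35.1% at 50 to 75 kb and 34.4% of 276 at 75 to 100 kb. Without regions near an end of a non-coding gene the shares were 30.8% at 1 to 5 kb, 39.5% at 20 to 30 kb and 32.1% at 75 to 100 kb. The share also followed the strength and the width of the CHD7 region. It was 26.7% in the lowest and 57.5% in the highest decile by mean CHD7 fold, and 23.4% of regions up to 500 bp wide against 62.7% of those over 1000 bp. The part of width in the overlap was not tested.

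**Figure D1:**
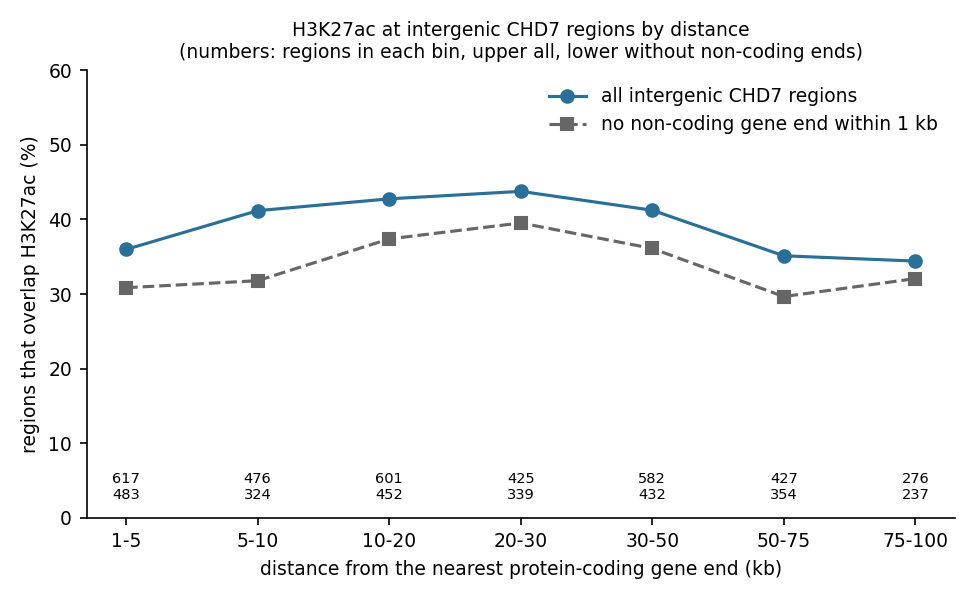
Share of intergenic CHD7 regions that overlap H3K27ac (%, y axis) by distance from the nearest protein-coding gene end (kb, x axis), for all regions (circles) and for those without a non-coding gene end within 1 kb (squares). The share is highest at 20 to 30 kb in both, 43.8% and 39.5%, and the squares lie below the circles in every bin.

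The members had moderate CHD7 enrichment with a long upper end. The fold enrichment at the summit, a ratio given by the authors' peak caller, ran from 1.70 to 11.2 in CHD7 library 1 with a median of 3.61, and from 1.83 to 10.2 in library 2 with a median of 3.48. Intergenic regions without H3K27ac had medians of 3.29 and 3.23. On the log2 scale the difference of medians was 0.14 in library 1 and 0.11 in library 2, a mean of 0.12 ± 0.02 (SD, n = 2). It was 0.19 without CHD7 library 2, 0.0817 with the −log10 q minimum raised to 5 and 0.0250 with it at 10, and 0.0759 with genes of all types as boundaries. CHD7 regions with H3K27ac in gene bodies had CHD7 medians of 3.40 and 3.37, and those at gene boundaries 3.68 and 3.67. The intergenic members thus lay between these sets by CHD7 fold in library 1 and library 2, with quartiles that overlap all of them.

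By H3K27ac the order was different. The H3K27ac fold of the members had medians of 3.76 in library 1 and 3.78 in library 2, with maxima of 12.004 and 11.3. Those in gene bodies had 3.95 and 3.90, and those at gene boundaries 4.89 and 4.78. In both H3K27ac libraries the intergenic members had the lowest median of the sets compared, and the gap to the boundary regions was wider than that between libraries. Members were 788 bp wide at the median, against 617 bp for intergenic regions without H3K27ac, and lay 19.9 kb from a protein-coding gene.

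**Figure D2:**
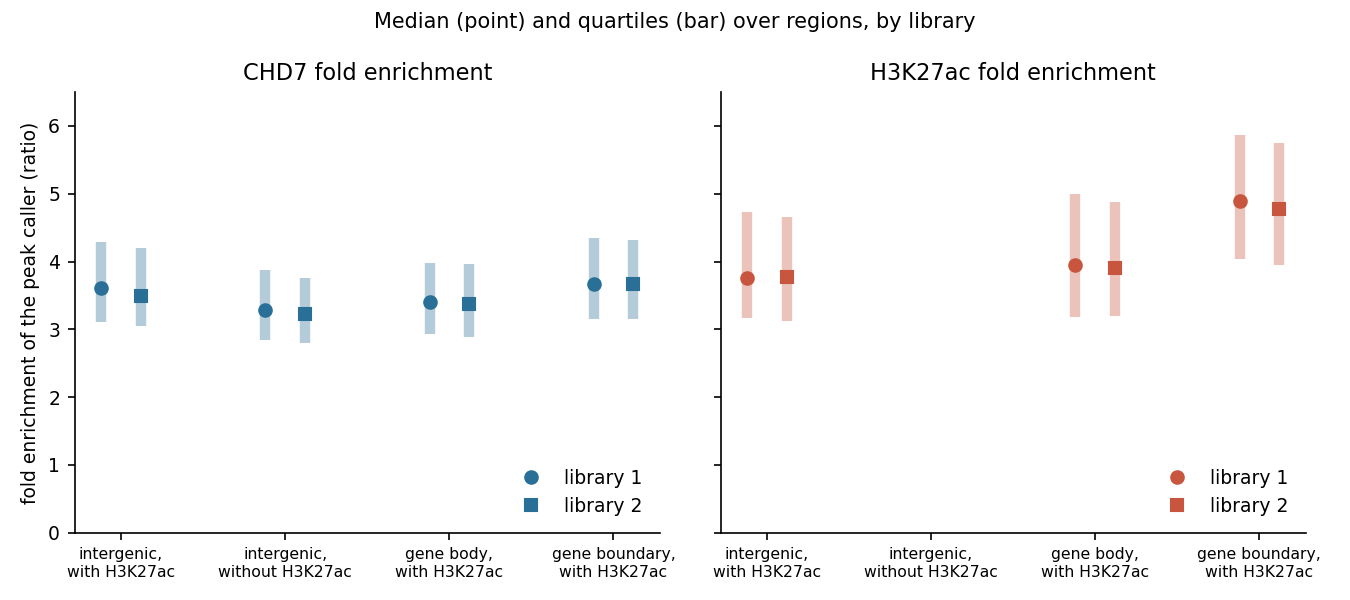
Fold enrichment (ratio, y axis) of CHD7 (left) and H3K27ac (right) by class of CHD7 region, with a circle for the median in library 1, a square for library 2 and a bar from the lower to the upper quartile over regions. The intergenic members have CHD7 medians of 3.61 and 3.48 and the lowest H3K27ac medians, 3.76 and 3.78, while regions without H3K27ac have no H3K27ac value by definition.

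Libraries of an antibody ranked the members alike. Across the 1346 members the Spearman rho of fold was 0.68 between the CHD7 libraries and 0.77 between the H3K27ac libraries. Between CHD7 and H3K27ac libraries it was 0.41 to 0.44, and 0.49 between the means of both. These are correlations across regions of the same embryonic cells and the same libraries, which are not independent replicates. The median difference between libraries was 0.17 on the log2 scale for CHD7 and 0.18 for H3K27ac, and 0 members differed over 2-fold for either. Distance from the gene had a rho of 0.06 with CHD7 fold and -0.15 with H3K27ac fold, and region width a rho of 0.32 with CHD7 fold.

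The H3K27ac region usually covered most of the CHD7 region. The covered part had a median of 86.1%. It was the whole region for 345 members and 50% or more for 1167 (86.7%), and the smallest overlap was 12 bp. Where CHD7 and H3K27ac peaked within these regions was not used by the rule. The CHD7 and H3K27ac summits lay a median of 100 to 113 bp apart over the 4 pairs of libraries, a mean of 109 ± 5.97 bp (SD, n = 4 pairs that share libraries). Summits of the 2 CHD7 libraries lay 73 bp apart and those of the 2 H3K27ac libraries 63 bp. The distance between antibodies was thus larger than that between libraries of an antibody. With the −log10 q minimum raised to 10 it was 61.0 bp.

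The same distance was smaller in the other classes. CHD7 and H3K27ac summits lay 93.9 ± 2.02 bp apart in gene bodies and 67.8 ± 2.75 bp at gene boundaries (SD, n = 4 pairs each). Summits of the CHD7 libraries lay 66 bp apart in gene bodies and 56 bp at boundaries, and those of the H3K27ac libraries 60.5 and 44 bp. The distances between libraries of an antibody thus fell in the same order of classes. The part of summit precision in the difference between classes was not tested. The intergenic values of 100, 110, 112 and 113 bp did not overlap the gene-body values, which ran from 91.5 to 96.0 bp. Within 150 bp of each other were 57.7% to 60.8% of the members' summits, and 11.7% to 12.7% lay over 500 bp apart. More than 1 summit was called in 25.2% and 23.3% of the CHD7 peaks in members, against 13.8% and 15.1% of all CHD7 peaks. The peaks in members were also wider, with medians of 609 and 591 bp against 463 and 470 bp. The part of width in the number of summits was not tested.

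**Figure D3:**
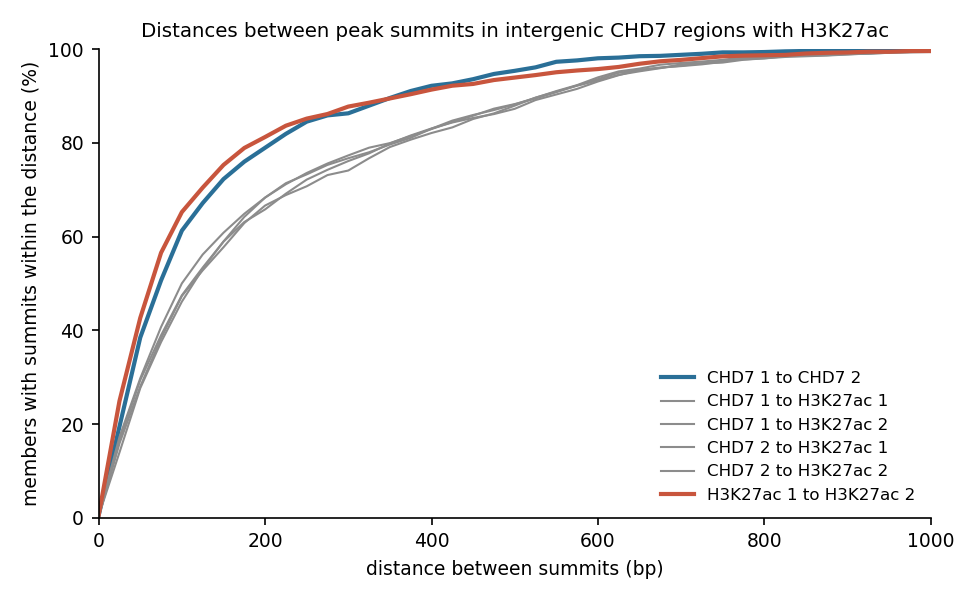
Share of members (%, y axis) whose summits lie within the distance on the x axis (bp), for the CHD7 libraries against each other (blue), the H3K27ac libraries against each other (red) and the 4 pairs of a CHD7 with an H3K27ac library (grey). The grey lines lie below both coloured lines up to 500 bp, with medians of 100 to 113 bp against 73 and 63 bp.

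Whether H3K27ac at an intergenic CHD7 peak went with its return in another library was tested on data the choice had not used. CHD7 peaks were chosen on library 1 alone, with or without an H3K27ac peak of library 1, and looked for in CHD7 library 2. Of 2240 intergenic peaks with H3K27ac 74.2% recurred, against 45.0% of 4194 without. In the reverse direction 86.3% of 1822 with H3K27ac recurred against 64.7% of 3072 without. The means were 80.2% ± 8.58 and 54.9% ± 14.0 (SD, n = 2 directions, which use the same libraries), a difference of 25.4 percentage points. The exact permutation test gave p = 0.3333, two-sided, the smallest that 2 against 2 values allow. That test takes the 4 values as independent, although each library gave one with and one without H3K27ac. Paired within the library chosen on, the differences were 29.2 and 21.5 points, and an exact sign-flip permutation gave p = 0.50, two-sided, the smallest that 2 pairs allow.

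Peaks with H3K27ac were also stronger, and the recurrence is given at matched fold. They were wider too, with medians of 537 against 400 bp in library 1 and 545.5 against 404 bp in library 2. Width was not matched, and its part in the recurrence was not tested. At a fold of 3 to 4, 76.7% of the library 1 peaks with H3K27ac recurred against 49.8% without, and 88.0% against 67.1% of the library 2 peaks. Above 4 the values were 94.8% against 85.5%, and 98.2% against 91.0%. Up to 2.5 they were 54.8% against 35.7%, and 63.5% against 53.1%. The share was higher with H3K27ac in each of the 4 fold classes in both directions. The H3K27ac peak itself was found again at 77.9% and 84.1% of the peaks chosen with it, and at 8.27% and 12.01% of those chosen without.

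The member with the highest mean CHD7 fold lay 6.94 kb from Kif2c, a kinesin that takes microtubules apart, over the snRNA gene Gm25099 (chromosome 4, 117189565 to 117190854). Its CHD7 folds were 11.2 and 9.68 and its H3K27ac folds 11.5 and 11.3. The next, 27.3 kb from Nxnl2, covered the transcribed histone pseudogene H2af-ps2 (13, 51202465 to 51203230) with CHD7 folds of 10.7 and 10.2. It was followed by the member over Rnu5g, a gene of the U5 snRNA of the spliceosome, near Parp16 (9, 65201232 to 65202152). Its CHD7 folds were 9.76 and 9.87 and its H3K27ac folds 6.95 and 8.98. The member over Rnu11, the U11 snRNA of the minor spliceosome, lay 3.86 kb from Taf12, a subunit of the general transcription factor TFIID (4, 132269206 to 132270491), with CHD7 folds of 9.72 and 9.52. Of the 10 strongest members by CHD7, 6 covered snRNA genes.

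The other members of the 10 were mixed. Near Armh1 on chromosome 4 a member over the snRNA gene Gm23287 had CHD7 folds of 9.22 and 7.85 and another over Gm23143 had 8.20 and 7.64. The member 2.72 kb from Slfn14 covered the snRNA gene Gm23444 (11, 83271219 to 83272388), with CHD7 folds of 7.17 and 9.54. At 33.5 kb from Gm52512 a member with CHD7 folds of 6.52 and 9.33 held a tRNA end and the start of 4930555B11Rik. The remaining pair lay over 1 kb from any annotated end. One, 12.4 kb from Zbtb7c, a BTB zinc finger gene, had CHD7 folds of 9.08 and 9.68 and H3K27ac folds of 10.6 and 8.54, and the other, 45.9 kb from Ubash3b, had 8.16 and 8.25 with H3K27ac folds of 5.94 and 6.12.

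Ranked by H3K27ac, the first member was 31.4 kb from Ptpdc1 and 7794 bp from Mirlet7a-1, a let-7 gene (13, 48546066 to 48546500). Its H3K27ac folds were 12.004 and 11.3 and its CHD7 folds 7.12 and 7.05. Members near Kif2c, Slfn14 and Zbtb7c stood in both rankings. The members over the snRNA genes Gm26444 and Gm25679, between Snx6 and Eapp, had H3K27ac folds of 10.9 and 11.3, and of 9.83 and 11.0. A member over the tRNA gene n-TMcat8, 5.78 kb from Pom121l2, had 10.1 and 10.2, and the member 14.0 kb from Pecr that is printed above had 10.6 and 9.38. At 1.14 kb from Fosb, a gene of the AP-1 transcription factor, a member over the lncRNA gene Gm26802 had 9.29 and 10.02. The member 44.7 kb from 9530057J20Rik had 10.9 and 8.67 and lay 33106 bp from the nearest non-coding gene.

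Outside all annotated genes and their ends, the strongest members by CHD7 after that near Zbtb7c lay near Il20rb, Tex21 and Ptpdc1. The member 11.1 kb from Il20rb had CHD7 folds of 6.59 and 8.65 and H3K27ac folds of 8.63 and 7.60. That 1.88 kb from Tex21 had CHD7 folds of 8.45 and 6.79 and H3K27ac folds of 5.29 and 4.67. At 51.8 kb from Igfbp7, a secreted binding protein of insulin-like growth factors, CHD7 folds were 6.94 and 6.26 and H3K27ac folds 5.52 and 5.48. High values of either antibody were therefore also found away from non-coding genes.

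Genes that make no protein were not part of the rule, and their ends lay near many members. An end of such a gene stood within 1 kb of 454 members (33.7%), against 329 (16.0%) of the 2058 intergenic CHD7 regions without H3K27ac and 783 of 3404, or 23.0%, of both together. Chosen on the peaks of single libraries, the shares were 28.2% and 29.7% with H3K27ac and 13.2% and 15.01% without. Their means were 28.9% ± 1.08 and 14.1% ± 1.29 (SD, n = 2 libraries), 14.8 points apart, and the exact permutation p was 0.3333, two-sided, the smallest possible. Within the libraries the differences were 14.98 and 14.7 points, with a paired exact permutation p of 0.50, again the smallest possible. The difference was larger than the spread between libraries. The share over the members found in both libraries, 33.7%, was 56.8% with the −log10 q minimum raised to 10. Measured from the centre of the region, which takes its width out of the distance, the shares were 30.2% and 13.3%. In regions of 500 to 750 bp they were 31.4% and 15.4%, and in those over 1000 bp 44.1% and 20.4%.

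Each type of non-coding gene took part to a different degree. Ends of lncRNA genes lay near 319 members (23.7%) and 241 regions without H3K27ac (11.7%), and tRNA ends near 68 (5.05%) and 53 (2.58%). snRNA ends lay near 33 members (2.45%) but near 4 regions without H3K27ac (0.19%). Transcribed pseudogenes lay near 23 and 8, other pseudogenes near 36 and 27, and small nucleolar RNA genes near 11 and 6. Y RNA genes, whose short products bind the Ro protein, lay near 3 and 0. No annotated gene end within 1 kb and no gene body was found at 735 members (54.6%) and at 1484 of the regions without (72.1%).

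**Figure D4:**
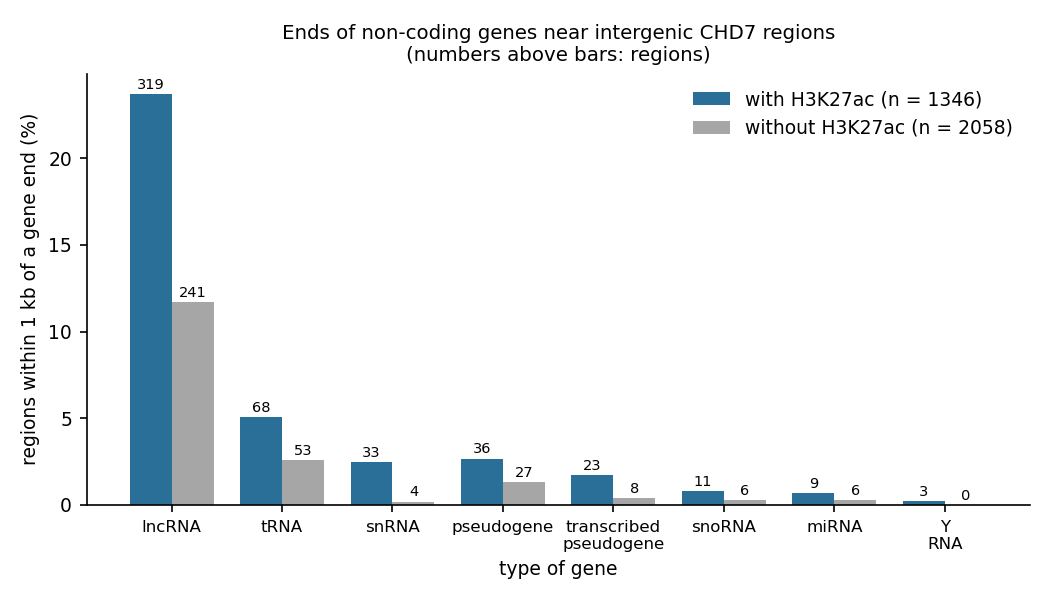
Share of intergenic CHD7 regions (%, y axis) with an end of a gene of each non-coding type (x axis) within 1 kb, for the 1346 members with H3K27ac (blue) and the 2058 regions without (grey), with the number of regions above each bar. The blue bar is the taller for every type, with 33 against 4 regions for snRNA genes.

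Counted from the genes, tRNA and snRNA genes differed. Of 298 tRNA genes of the intergenic space 116 (38.9%) lay at a member and 71 (23.8%) at a CHD7 region without H3K27ac. Of 401 snRNA genes 33 (8.23%) lay at a member and 4 (1.00%) at a region without. Among snRNA genes with a family name, Rnu1b1, Rnu1b2 and Rnu1b6 of U1, Rnu2-10 of U2, Rnu5g of U5 and Rnu11 of U11 all lay at members, while Rnu6 of U6 had no CHD7 region. Rny1 and Rny3 were the only Y RNA genes of this space in the table and both lay at members. Of 5169 lncRNA genes 268 (5.18%) lay at a member and 198 (3.83%) at a region without H3K27ac. Of 427 small nucleolar RNA genes 14 (3.28%) lay at a member and 3 (0.70%) at a region without. Copies of snRNA and tRNA genes are nearly identical, and the sources used here do not state how reads matching several copies were placed, so peaks at a single copy are uncertain.

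Members at snRNA ends had the highest medians of the site types compared. Counting each member once, the 32 at snRNA ends had median CHD7 folds of 5.79 and 5.98 and median H3K27ac folds of 7.06 and 7.09. The 68 at tRNA ends had CHD7 medians of 4.18 and 4.01 and H3K27ac medians of 4.60 and 4.29. The 293 at lncRNA ends had CHD7 medians of 3.61 and 3.52, close to the 3.56 and 3.39 of the 892 with no end nearby. In regions without H3K27ac the CHD7 medians at tRNA ends were 3.16 and 3.12 and at lncRNA ends 3.15 and 3.21, below the 3.30 and 3.23 of those with no end nearby. The members at snRNA ends were 1161.5 bp wide at the median, and H3K27ac covered 25.8% to 66.7% of the 10 strongest of them.

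The share of ends changed along the CHD7 ranking. Of the 50 members with the highest mean CHD7 fold 30 had an end of a non-coding gene within 1 kb. Of these, 16 were counted at an snRNA end, 6 at a tRNA end and 6 at an lncRNA end. Each member was counted once, under tRNA first, then snRNA, then lncRNA, so those at tRNA or snRNA ends may also hold an lncRNA end. Of ranks 51 to 100, 52.0% had one, of ranks 101 to 200 45.0%, of ranks 201 to 400 70 of 200 and of ranks 401 to 1346 29.9%. Of the 32 snRNA-end members, 6 stood in this last class. The median of mean H3K27ac fold was 6.11 in the top 50 and 3.53 in ranks 401 to 1346.

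Some other non-coding genes had members of high H3K27ac, and those given here were picked after their values were seen. Terc, the RNA template of telomerase, lay in a member 18.9 kb from BC107364 (3, 96413907 to 96414899) with CHD7 folds of 4.69 and 5.58 and H3K27ac folds of 9.12 and 9.80. Scarna2, a guide RNA of Cajal bodies, lay in a member 1.62 kb from Tmem167b with CHD7 folds of 5.89 and 6.81 and H3K27ac folds of 8.50 and 8.04. Snhg17, a host gene of small nucleolar RNAs, started in a member 28.1 kb from Lbp with CHD7 folds of 4.63 and 5.49 and H3K27ac folds of 5.82 and 6.95. All of these stood above the members' medians for both antibodies in every library.

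Members lay mostly alone. Joined where the space between them was at most 12.48 kb, they formed 1177 groups, of which 1043 held 1 member, 107 held a pair and 27 held 3 or more. In all, 303 members (22.5%) had another member so close, and the distance to the next member had a median of 574 kb. The largest groups held 6. Between Eapp and Snx6 on chromosome 12, 6 members in 28.8 kb all lay at snRNA ends, with CHD7 folds of 2.51 to 6.36 in library 1 and 2.56 to 6.31 in library 2. Mean H3K27ac folds ran from 4.45 to 11.1 there.

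The second group of 6 lay between Gm40363 and Pdia4, a disulfide isomerase gene, in 30.2 kb of chromosome 6. Its last member covered Rny1, with CHD7 folds of 4.002 and 3.17 and H3K27ac folds of 9.02 and 7.21. The members at Rny3, with CHD7 folds of 3.26 and 3.68 and of 2.97 and 2.62, shared 1 H3K27ac region with folds of 6.46 and 6.59. Between Mreg and Pecr on chromosome 1, 4 members in 30.2 kb all lay at snRNA ends, with CHD7 folds of 6.10 to 7.81 and 5.33 to 6.87. The 3 members between Kif2c and Armh1 also all lay at snRNA ends, within 21.9 kb, with CHD7 folds of 8.20 to 11.2 and 7.64 to 9.68. This group was taken from those of 3 members because its summed CHD7 fold was the highest. Its place among the 5 by CHD7 fold follows from that choice.

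The remaining group of the 5 lay on the flank of Chd2, which encodes a remodeller of the same family as CHD7, with 4 members in 23.6 kb and no snRNA. Their CHD7 folds were 3.65 and 2.64, 4.87 and 3.19, 3.74 and 3.92, and 2.41 and 2.84 from the first to the last position. A further pair of members lay 14.7 and 17.2 kb from Chd2, beside Chaserr, an lncRNA gene known for its control of Chd2 in cis. They had CHD7 folds of 2.76 and 2.26 and of 2.58 and 2.49, below the members' medians in both libraries. Chd2 was thus nearest to 6 members, all of moderate fold.

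**Figure D5:**
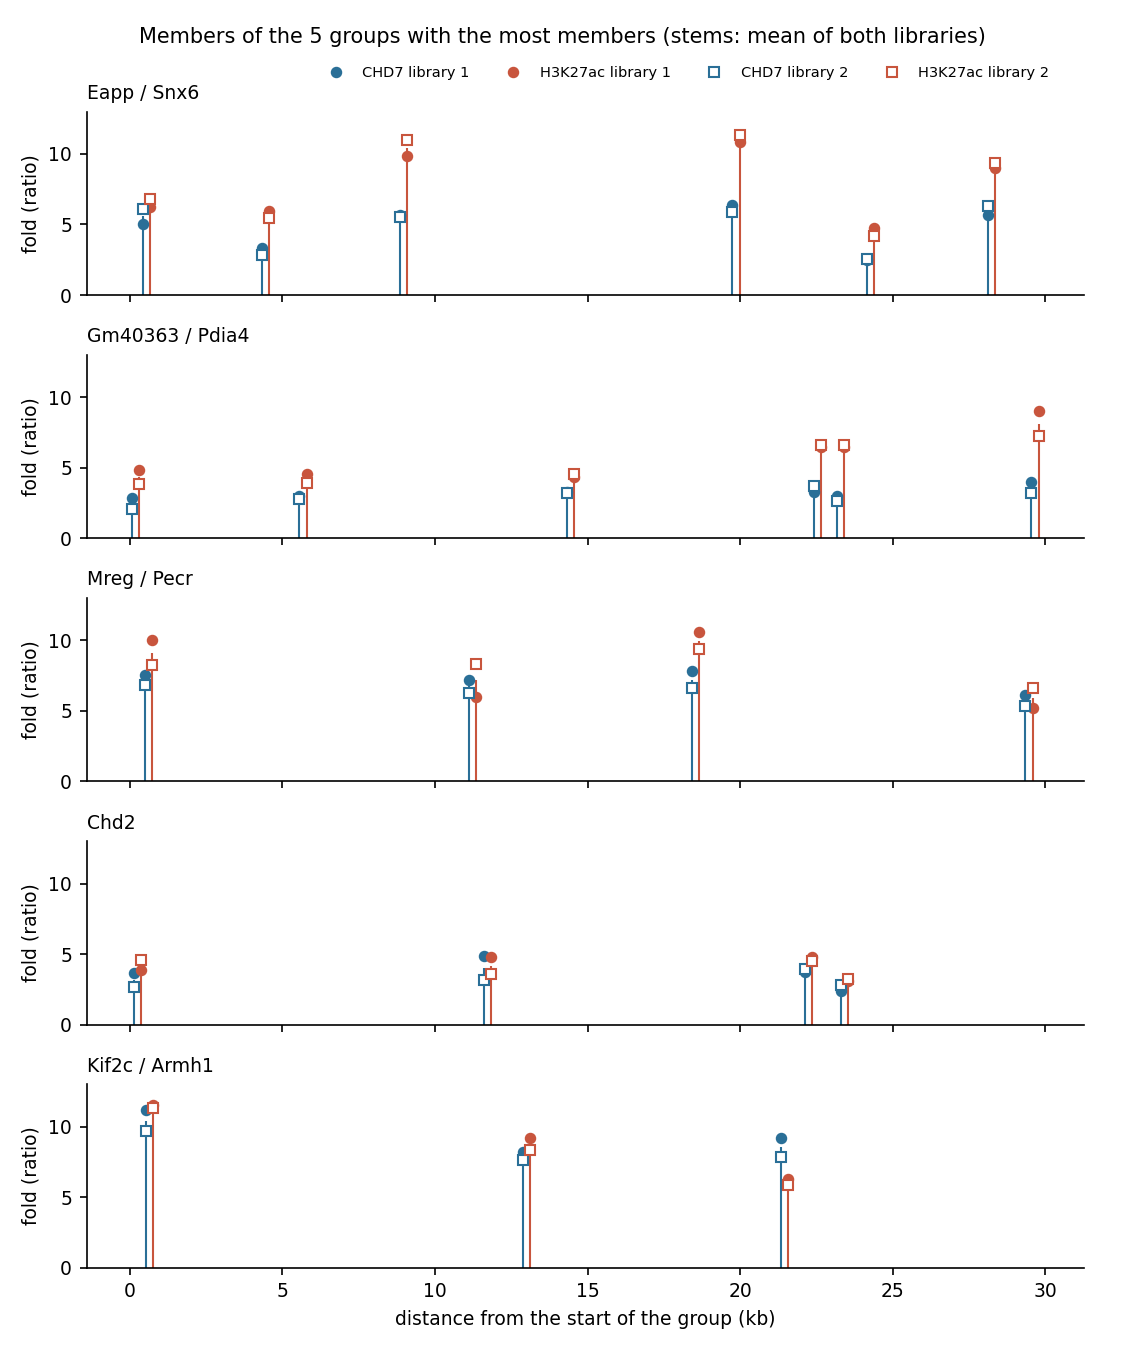
Fold (ratio, y axis) of each member in the 5 groups against its distance from the start of the group (kb, x axis), with CHD7 in blue, H3K27ac in red, filled circles for library 1, open squares for library 2 and stems up to the mean. The groups at Eapp and Snx6, Mreg and Pecr, and Kif2c and Armh1 reach mean H3K27ac folds of 9.98 to 11.4, while the group at Chd2 stays at 4.66 or below.

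Of the gaps between neighbouring protein-coding genes, 993 held a member and 770 of these held just 1. The gap of 186.6 kb between Cstad and 1700001O22Rik on chromosome 2 held the most, 10, beside 6 CHD7 regions without H3K27ac. Their mean CHD7 folds ran from 3.12 to 5.14 and 5 lay near ends of lncRNA genes. The gap of 98.5 kb between Tex44 and Ptma, the prothymosin gene, held 9 members and 1 region without H3K27ac, with mean CHD7 folds of 2.64 to 4.56 and mean H3K27ac folds of 2.45 to 5.54. The third, between Gm40363 and Pdia4, held 7. In the first of these gaps the member with the highest CHD7 fold, 5.16 and 5.13, lay 87.5 kb from 1700001O22Rik, near the middle of the gap.

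Each member was assigned to the protein-coding gene with the nearest end, which does not show that it acts on that gene. Of 21776 genes 1068 (4.90%) were nearest to at least 1 member and 1637 (7.52%) to at least 1 region without H3K27ac, 298 to both. Most, 861, had 1 member, and Cstad had the most, 7. Of 556 genes in lists chosen for this tissue 555 were in the gene table, and 72 were nearest to 94 members. The strand of the nearest gene was known for 1042 members, and 468 (44.9%) lay upstream of that gene. Of 1611 intergenic CHD7 regions without H3K27ac and with a known strand, 759 (47.1%) did so, a similar share.

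Among neural crest specifiers, transcription factors that set up the crest, 8 of 32 genes were nearest to a member, among them Myc, Mycn, Sox5 and Sox6. The same list had 17 of 32 genes nearest to a region without H3K27ac. The member 52.1 kb upstream of Sox5 had CHD7 folds of 4.70 and 4.58 and H3K27ac folds of 3.34 and 2.90. That near Myc, 47.4 kb away, had CHD7 folds of 4.79 and 4.11 and H3K27ac folds of 3.98 and 4.73. It covered an annotated limit of the lncRNA gene Pvt1, with start and finish not told apart. At Mycn, 30.7 kb away, CHD7 folds were 4.55 and 4.31 and H3K27ac folds 3.97 and 5.70. These members stood above the CHD7 medians in both libraries, while that at Sox6 lay below them, with 3.56 and 3.20.

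Of 37 genes of cardiac neural crest and outflow tract 5 were nearest to a member and 6 to a region without H3K27ac. The member 22.7 kb downstream of Tgfbr1, a TGF-beta receptor gene, was the strongest of these, with CHD7 folds of 4.97 and 4.63 and H3K27ac folds of 5.76 and 5.29. Near Smad4, the shared mediator of TGF-beta and BMP signals, CHD7 folds were 3.34 and 3.94 and H3K27ac folds 3.58 and 3.68. The member 32.4 kb upstream of Nf1, a Ras inhibitor, had CHD7 folds of 2.98 and 3.42, and that near Gja1, the connexin 43 gene, 2.55 and 3.19. Only the member at Tgfbr1 was above the CHD7 medians of all members in both libraries.

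Of 38 patterning genes of the pharyngeal arches 2 were nearest to a member and 16 to a region without H3K27ac. The member 13.2 kb from Pou3f3 lay at the start of the lncRNA gene Pantr2, with CHD7 folds of 3.03 and 3.03 and H3K27ac folds of 3.39 and 3.20. The member 51.3 kb from Uncx, a homeobox gene, had CHD7 folds of 4.27 and 3.18 and H3K27ac folds of 3.71 and 4.27. None of the 39 Hox genes was nearest to a member, and 3 were nearest to a region without H3K27ac. Whether the shares of these lists differ from each other was not tested.

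Signalling genes were described by pathway. In the WNT list 8 of 36 genes were nearest to 12 members, and 11 to a region without H3K27ac. The member over the tRNA gene n-TPtgg8, 19.1 kb upstream of the ligand gene Wnt11, had CHD7 folds of 6.45 and 5.21 and H3K27ac folds of 2.93 and 3.37. That 95.4 kb from Tcf7l2, a transcription factor of the pathway, had CHD7 folds of 5.37 and 4.64 and H3K27ac folds of 4.80 and 4.30. Wnt7b had 3 members, at 43.7, 53.1 and 64.1 kb, and the farthest had CHD7 folds of 3.39 and 5.75 and H3K27ac folds of 4.24 and 7.46. Sfrp1, an antagonist that binds WNT ligands, had a member at 50.04 kb with CHD7 folds of 3.84 and 3.71. The member at Wnt11 was thus among the highest by CHD7 while its H3K27ac folds lay below the members' medians in both libraries.

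In the BMP and TGF-beta list 6 of 30 genes were nearest to a member and 11 to a region without H3K27ac. Chrd, which encodes the BMP antagonist chordin, had one at 62.3 kb with CHD7 folds of 4.44 and 5.30 and H3K27ac folds of 5.07 and 4.01. Ltbp1, a gene of the latent TGF-beta complex, had one at 10.47 kb with CHD7 folds of 4.63 and 4.27. The inhibitor gene Smad7 had one at 23.7 kb with CHD7 folds of 3.48 and 4.13 and H3K27ac folds of 4.79 and 5.39, and the ligand gene Bmp7 one at 18.2 kb with 3.15 and 3.08. Ligand, antagonist and intracellular inhibitor genes were thus all among the 6, with the antagonist highest by mean CHD7 fold.

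In the FGF list 6 of 21 genes were nearest to 9 members, and 6 to a region without H3K27ac. The receptor gene Fgfr2 had them at 11.99 and 87.8 kb, and the farther one had CHD7 folds of 4.25 and 3.62 and H3K27ac folds of 2.59 and 3.83. The inhibitor gene Spred2 had one at 3.82 kb with CHD7 folds of 4.53 and 3.47, and Etv4, a transcription factor induced by FGF signals, one at 29.7 kb with 4.06 and 3.64. Spry2 and Dusp6, which encode feedback inhibitors, had a pair each, with CHD7 folds from 2.05 to 3.20. The members of the feedback inhibitor genes Spry2 and Dusp6 thus all lay below the CHD7 medians in both libraries.

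In the NOTCH list 3 of 20 genes were nearest to a member and 4 to a region without H3K27ac. The member 1.54 kb from the ligand gene Dll4 had CHD7 folds of 5.35 and 6.47 and H3K27ac folds of 8.39 and 6.51, well above those 56.2 kb from Hes1, 3.05 and 3.22, and 2.26 kb from Nrarp, 2.98 and 3.02. In the retinoic acid and hedgehog list 4 of 28 genes had a member and 10 a region without H3K27ac. Those of the hedgehog co-receptor genes Gas1 and Cdon had CHD7 folds of 4.34 and 3.67 at the stronger Gas1 site and 3.98 and 3.85 at Cdon, and that of Gli3, a hedgehog transcription factor, 3.58 and 4.18. In the semaphorin and axon guidance list 7 of 50 genes had a member and 11 a region without H3K27ac. The strongest members were at Sema5a with CHD7 folds of 3.70 and 4.06 and at Ephb3 with 3.71 and 3.49. Nrp1, a semaphorin receptor gene, had one at 23.2 kb with 2.40 and 3.96, the libraries being far apart there.

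Of the smooth muscle and matrix genes 4 of 24 had a member, Col4a1 with the highest CHD7 folds of 3.996 and 4.71, and 5 had a region without H3K27ac. Of 32 chromatin regulator genes 5 were nearest to a region without H3K27ac and 7 to 13 members, among them Chd2, Chd3, Chd6, Chd9 and Chd7 itself. The member 42.3 kb from Chd7 had CHD7 folds of 2.48 and 3.54 and H3K27ac folds of 3.16 and 3.29, and the member near Chd6 had CHD7 folds of 3.00 and 3.52 with H3K27ac folds of 9.24 and 8.33. Of 26 housekeeping genes 2 had a member and 1 a region without H3K27ac. Among marker genes of crest derivatives and other cell types, a member was nearest to 2 of 20 for neurons and ganglia, 1 of 14 for glia and melanocyte precursors, 1 of 16 for cardiomyocytes and 1 of 16 for endothelium. It was nearest to 1 of 14 for blood, 3 of 17 for epithelium and endoderm, and 1 of 15 for mesoderm and skeletal muscle. Regions without H3K27ac were nearest to 8, 2, 1, 2, 3, 3 and 1 genes of these lists in the same order. Of 30 genes of adult tissues none was nearest to a member and 2 to a region without H3K27ac. The share of genes with a member was 6.25% to 17.6% in the marker lists and 7.69% among housekeeping genes. Over all protein-coding genes it was 4.90%. In lists of 14 to 20 genes, 1 gene with a member is enough to exceed that value. Such counts do not show which cells the chromatin came from.

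Some members near marker genes had CHD7 or H3K27ac folds above the medians of all members. The pair of members near Ednrb, 54.1 and 35.5 kb away, had CHD7 folds of 5.94 and 5.67 and of 4.87 and 5.20. The member 73.8 kb from Sox17, a gene of endothelium and endoderm, had CHD7 folds of 3.77 and 6.06 and H3K27ac folds of 5.79 and 7.64. At 11.3 kb from Myl3, of cardiomyocytes, a member had CHD7 folds of 4.62 and 5.11 and H3K27ac folds of 5.05 and 6.15. Epcam, of epithelia, was nearest to 3 members, with CHD7 folds of 4.18 and 4.99, 5.18 and 3.77, and 3.72 and 3.56. The member 19.9 kb from Pax2 had H3K27ac folds of 8.63 and 8.35 beside CHD7 folds of 3.14 and 2.75. The presence of other cell types in the sorted fraction was not tested by these lists.

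Between chromosomes the share with H3K27ac ran from 33.0% on chromosome 5 to 50.99% on chromosome 17 over the autosomes. On the X chromosome 27 intergenic CHD7 regions had H3K27ac and 13 did not, a share of 67.5%, and on the Y chromosome 0 of 13 did. Median CHD7 folds of the members on the X were 3.68 and 3.81, against 3.61 and 3.48 on the autosomes. Chromosome 13 held 22 of the 68 members at tRNA ends and chromosome 12 held 8 of the 32 at snRNA ends. The share on the X rests on few regions and was not tested.

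At the limits of the rule the CHD7 folds of the nearest regions on either side overlapped. The share with H3K27ac did differ between the classes on either side of the near limit. Among CHD7 regions free of input peaks it was 80.4% within 1 kb and 36.0% of intergenic regions at 1 to 5 kb. Regions with H3K27ac within 1 kb lay a median of 64 bp from the gene end, with an upper quartile of 181 bp. The share close to the limit itself was not measured. Just inside 1 kb were the members 1003 bp from Vmn2r87, with CHD7 folds of 4.59 and 3.72, and 1013 bp from Rap2a, with 3.20 and 2.89. Just outside were the regions 998 bp from Usp18, with 4.35 and 5.43, and 985 bp from Elf2, with 2.91 and 2.40. At the far limit the members 99206 bp from Castor2 and 98983 bp from Sptssa had 2.98 and 4.02 and 4.64 and 2.93. The regions beyond it, 100065 bp from Gm40514 and 100293 bp from Pcdh18, had 3.096 and 3.39 and 3.62 and 3.33.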

How the data were processed

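ChIP-seq peak lists of 6 libraries were used, 2 each for CHD7, H3K27ac and input. Per the submitters' processing notes, the tools were bcl2fastq 2.18.0.12, Bowtie2 2.3.3.1, Picard and MACS2 2.1.2, with build mm10. The sources used here do not state the control of the peak calls. The authors called peaks on each library by itself. The deposited lists give each peak's fold enrichment at the summit (a ratio), its p-value and q-value as −log10, and a score derived from the q-value. They hold no read counts, so depth and counting error are unknown. These fold values are the authors' and were used to describe and rank regions within a list.

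Rows for several summits of 1 interval were joined, and the placed chromosomes (1 to 19, X, Y) kept. Overlap meant 1 bp or more. Genes came from RefSeq GRCm38.p6; 111 of 21887 protein-coding genes with starts below 3000000 (500000 on Y), which belong to unplaced sequence, were left out. Ends of 27822 other genes were compared with the regions. Regions were named by the nearest protein-coding gene: the 10 highest by mean fold of each antibody, the 5 largest groups and the 3 fullest gaps, up to 4 per gene list, up to 10 near non-coding genes, and those at the limits. Groups with equal numbers of members were ranked by summed mean CHD7 fold. Further members (those away from annotated ends, the RNA genes Terc, Scarna2 and Snhg17, the microRNAs, the printed starts, Chaserr and single list genes) were named after their values were seen. The members and lists were chosen with earlier results of these data known. Scripts were tested on simulated peaks and used Python 3.11.15, numpy 2.4.6, pandas 2.3.3, scipy 1.17.1 and matplotlib 3.10.9. Exact permutation tests were two-sided, over 2 against 2 values and, paired within libraries, over sign flips. No test was run over regions, which are not replicates. Other q-values, overlaps, distances, gene types and left-out libraries were tried as alternatives.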

Additional observations from a re-analysis of the deposited data

How the results depend on the processing

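With the library as a replicate block, an alternative chosen after seeing the data, the recurrence difference was 25.4 points by construction, and the exact permutation p was 0.50 in place of 0.3333, each the smallest its design allows. A number shared by libraries of different antibodies marks no stated pairing. The 25.4-point difference in recurrence changed little, to 24.95 points with 50% of the region covered and 25.9 at a −log10 q of 5. The other results moved with the peak threshold, and the cause was not tested beyond the smaller lists. At a −log10 q of at least 5 and of at least 10, members numbered 588 and 185, and the share with H3K27ac at 10 was 41.6%. The CHD7 difference became 0.0817 and 0.0250 (log2), the summit distance 85.3 and 61.0 bp, the share near non-coding ends 45.2% and 56.8%, and the list genes 33 and 8. Regions of either library gave 2875 members, a share of 37.7%, a summit distance of 117.75 bp, 25.6% near non-coding ends and 135 list genes. With 50% of the CHD7 region covered, the share was 34.3% and the summit distance 94.4 bp. With all gene types as boundaries, members numbered 886, the share was 29.4%, the CHD7 difference 0.0759 (log2) and the summit distance 114.875 bp. At 1 to 50 kb 35.4% lay near non-coding ends, and 30.2% by the centre of the region, an alternative chosen after seeing the data. Counting both flanking genes gave 120 list genes. Leaving out each library in turn gave 1351 to 1796 members, a share of 27.9% to 47.6%, a CHD7 difference of 0.11 to 0.19, a summit distance of 108 to 118.5 bp, 31.0% to 33.7% near non-coding ends and 72 to 91 list genes. The difference was 0.19, over 1.5 times the 0.12 reported, without CHD7 library 2. Depth is unknown, so a region without H3K27ac may hold a level too low to be called.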
